A study of Mus musculus with 4 samples.

Results

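The skeletal muscle-rich spots of mouse dorsal skin numbered 642 of the 6411 spots kept. Each spot with at least 250 detected genes was given a score, the mean over 6 muscle genes (*Acta1*, *Ckm*, *Mylpf*, *Tnnt3*, *Tcap* and *Myl1*) of ln(1 + 10000 × UMIs of the gene / UMIs of the spot), where a unique molecular identifier (UMI) marks 1 captured transcript. The highest 10% of the spots of each slice were taken, which gave 165, 175, 156 and 146 spots in slices 1 to 4. The number of spots is therefore set by the rule and is no measure of how much muscle the skin holds. All other kept spots of the same slice served as the comparison, so each value below is paired by slice.

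Visium captures the RNA of a tissue section on a grid of barcoded spots, each wider than a cell. Sections of dorsal skin from 3 mice at P38 were placed on each of 4 slices, and the same 3 mice were used throughout. All of the mice carried the *Krox20-CreERT* allele and the *R26-tdTomato* reporter and were given 4-hydroxytamoxifen at P2, so no group of another genotype, age or treatment was compared. *CreERT* lies at the *Krox20* locus, the reporter marks cells that had *Krox20* activity at induction and their descendants, and muscle fibres are not named by the label. The slices are technical replicates, and each SD and p-value measures the spread between slices, not between mice. The slices held 26910422, 24128004, 21384253 and 19393026 UMIs. Distortion of the tissue led the study to omit the fourth section. The labels do not mark that section, and no spots were removed for it here.

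Below the dermis and its fat, rodent skin carries a thin sheet of striated muscle, the panniculus carnosus, which twitches the skin. Its fibres contract when calcium released from the sarcoplasmic reticulum frees the thin filaments to bind myosin, and the calcium is then pumped back. Adult fibres differ in speed by the myosin heavy chain they make, and fast fibres draw on phosphocreatine and glycogen as well as on mitochondria.

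The score genes are given as a description, since they chose the spots. *Acta1*, the actin of skeletal muscle thin filaments (ENSMUSG00000031972, chromosome 8 from 123891769 to 123894751 on the minus strand of GRCm38), had 11518, 13560, 13122 and 13901 CPM in the muscle-rich spots of slices 1 to 4. CPM is the UMIs of a gene divided by all UMIs of the same set of spots, times 1000000. In the other spots *Acta1* had 516, 756, 779 and 687 CPM. The muscle creatine kinase *Ckm* had 4433 ± 321 CPM (SD, n = 4 slices) against 246 ± 52, the fast regulatory light chain *Mylpf* 6203 ± 368 against 317 ± 30, and the Z-disc protein telethonin, *Tcap*, 874 ± 82 against 41.2 ± 8.5. Together the 6 genes took 3.14% to 3.59% of the UMIs of muscle-rich spots and 0.137% to 0.197% of those of the other spots. The score has no gap at its threshold, with the last spot inside at 3.13, 3.31, 3.25 and 3.27 and the first spot outside at 3.13, 3.30, 3.24 and 3.26 in slices 1 to 4. The last 10 spots inside slice 1 held 6618 CPM of *Acta1* and the first 10 outside held 6371 CPM. Gaps were wider elsewhere, as in slice 4, where *Tcap* had 645 CPM inside against 406 outside. *Atp2a1*, which was not in the score, had 2140 against 1761 there. Other values were higher outside. *Pvalb*, also not in the score, had 918, 1336, 1263 and 1251 CPM inside and 973, 1483, 1212 and 1299 outside in slices 1 to 4.

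Most muscle-rich spots lay in a line along the deep edge of each section. The score uses no positions. Their median distance from the nearest epidermis-rich spot (the top 10% by *Krt1*, *Krt10*, *Lor* and *Krtdap*) was 8, 8, 7 and 7 steps on the spot grid in slices 1 to 4. The other spots had a median of 4 steps in every slice, so the sets were 3.50 ± 0.58 steps apart (exact two-sided sign-flip permutation test, p = 0.13, the smallest that 4 slices allow). Among the up to 6 neighbours of a muscle-rich spot, 55.3%, 48.0%, 44.5% and 44.0% were muscle-rich too. For the other spots this share was 4.53% to 5.78%, so the slices did not overlap. A missing neighbour, as at the border of the tissue, was found for 77.2% ± 10.5 of muscle-rich and 16.4% ± 1.45 of other spots. Only 77 of the 642 muscle-rich spots had 4 or more muscle-rich neighbours, and 34 had none.

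**Figure D1:**
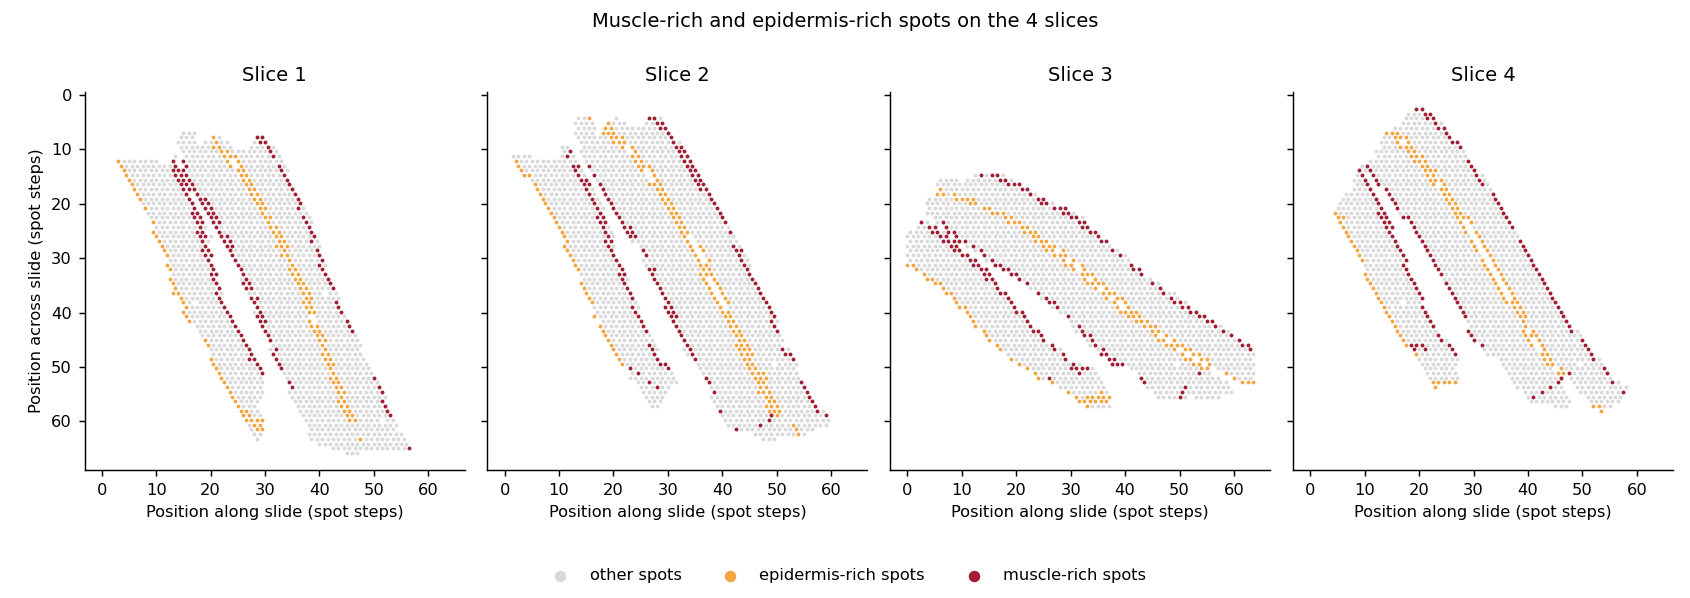
Positions of the kept spots on slices 1 to 4, in steps of the spot grid, with muscle-rich spots in red, epidermis-rich spots in orange and all others in grey. Most of the 642 muscle-rich spots run as narrow lines along the deep edge of each of the 3 sections, with the epidermis-rich spots on the opposite edge.

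Depth did not separate the sets clearly. Muscle-rich spots had a median of 14237, 13997, 14696 and 12308 UMIs, and the other spots 14671, 11424, 11419 and 11601. The log2 ratio was 0.17 ± 0.19 and lay above 0 in 3 of 4 slices (exact two-sided sign-flip permutation test, p = 0.25).

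Muscle transcripts dropped within 2 steps of the nearest muscle-rich spot and did not decline steadily beyond. *Acta1* helped choose the spots, so its drop outside them follows from the rule and is given as a description. *Acta1* had 14177 ± 2358 CPM in the 77 muscle-rich spots with 4 or more muscle-rich neighbours and 12903 ± 1331 in the other 565. In the 889 spots 1 step away it was 2084 ± 377 CPM, and at 2 steps 329 ± 62.3. Beyond that it was 269 ± 35.9 at 3 steps and 321 ± 24.6 at 6 or more steps, without a further decline. *Myh1*, which was not in the score, had 5928 ± 577 CPM in the 565 spots and 998 ± 168 at 1 step. It had 146 ± 27.5 CPM at 2 steps, 116 ± 27.1 at 3 steps and 177 ± 25.9 at 6 or more. Muscle RNA was thus counted at a low level far from any muscle-rich spot, at sites that include the epidermis. Fold changes below are against all other spots, those 1 step away included, unless stated otherwise. Whether it is RNA that spread during the assay was not tested.

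**Figure D2:**
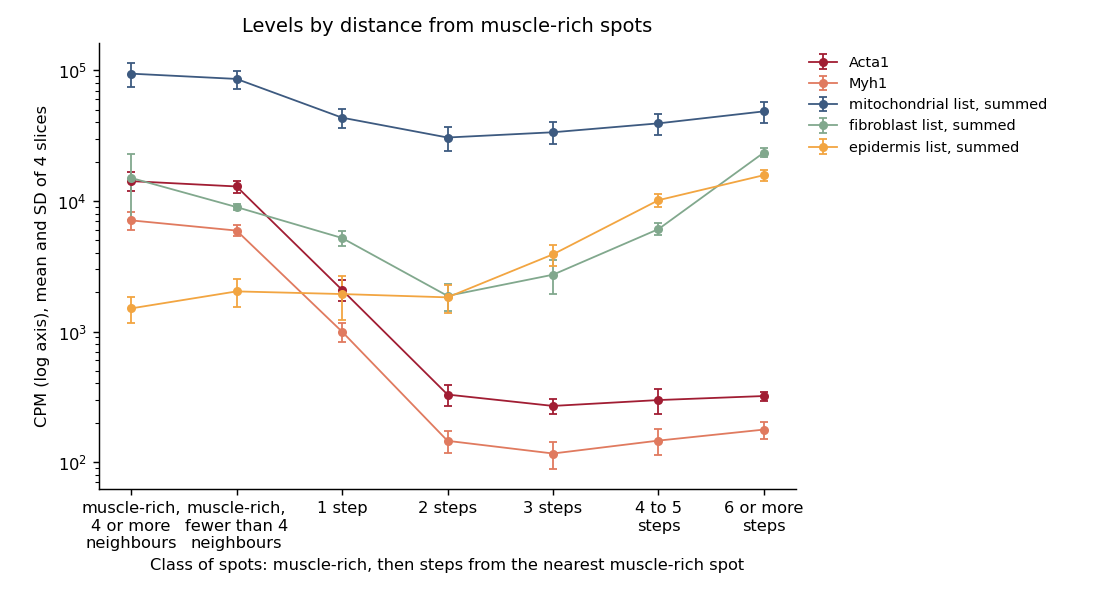
Mean CPM with the SD over 4 slices, on a log axis, in muscle-rich spots with 4 or more and with fewer than 4 muscle-rich neighbours, and in other spots by steps to the nearest muscle-rich spot. *Acta1* and *Myh1* are at 329 and 146 CPM by 2 steps. Beyond, they lie between 269 and 321 CPM and between 116 and 177 CPM, while the summed epidermis list is highest at 6 or more steps.

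UMIs were summed per slice and set and compared by the quasi-likelihood test of edgeR, with the slice as a block. A gene was called at an adjusted p under 0.05 with a log2 fold change of at least 1 in size. Of 13682 genes tested beside the score genes, 1090 were called higher in muscle-rich spots (7.97%) and 717 lower (5.24%). The balance depends on the scaling. With library size alone in place of TMM factors, 913 were higher and 970 lower, and the median log2 fold change of all genes, score genes included, was -0.15 in place of -0.0014. With spots within 2 steps of a muscle-rich spot left out of the other set, 1164 were higher and 1280 lower, and with sums per slice and strip 717 were higher and 452 lower. A gene made in the same fibres as the score genes must differ between sets chosen by those genes, so for muscle genes the size of the difference and its spread matter more than the call. Fewer fibres and less RNA per fibre cannot be told apart in spots.

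All 13 tested genes of the thick filament and M-band list were higher, with 4 of the 17 not tested for low counts. Their median log2 fold change was 4.28, against -0.0017 for all genes tested. *Myh1*, the IIx myosin heavy chain (ENSMUSG00000056328, chromosome 11 from 67200052 to 67224575), had 5499, 6096, 6178 and 6431 CPM in muscle-rich spots of slices 1 to 4. The other spots had 254, 345, 397 and 325 CPM, far below the lowest muscle-rich value, and the log2 fold change was 4.36 (standard error 0.05, adjusted p = 9.9e-58 in edgeR). The spring protein titin, *Ttn*, rose by 4.58, the slow-type myosin-binding protein C *Mybpc1* by 4.41 and the M-band protein *Myom2* by 4.47. With spots within 2 steps left out *Myh1* was at 5.43 and *Ttn* at 5.69, so including the nearest spots lowers these fold changes. Myosin shares were uneven. *Myh1* took 74.7% ± 1.54 of the UMIs of *Myh1*, *Myh2*, *Myh4* and *Myh7*, the IIb gene *Myh4* 21.4% ± 1.13 and the IIa gene *Myh2* 3.91% ± 0.471. The slow gene *Myh7* is listed at 0 in all muscle-rich spots. *Myh1*, *Myh2* and *Myh4* lie in 1 cluster with like sequences, so reads they share may have been lost or misassigned, and UMIs of this assay are not scaled by transcript length.

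The thin filament list had 12 of 14 tested genes called higher, with a median of 4.12. The fast troponins C and I, *Tnnc2* and *Tnni2*, rose by 4.48 and 4.36, and nebulin, *Neb*, by 4.37. The other 2 were under the threshold. The slow troponin I *Tnni1* had 6.93 ± 1.3 CPM against 7.80 ± 0.85 (log2 fold change -0.03, adjusted p = 0.93 in edgeR), and the tropomyosin *Tpm3*, used by slow fibres and by non-muscle cells, had a log2 fold change of -0.24. The slow troponin T *Tnnt1* rose by 3.55 from a low level, 11 ± 0.84 against 1.02 ± 0.19 CPM.

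All 20 genes of the Z-disc and costamere list rose, with a median of 4.14. Desmin, *Des*, the intermediate filament that ties Z-discs together, had 932 ± 71 CPM against 60.6 ± 9.1 (log2 fold change 4.10), α-actinin 2, *Actn2*, rose by 4.46, and the fast-fibre actinin *Actn3* by 4.13. The smallest changes were in genes that skin cells also use, the chaperone *Cryab* (1.77) and the adaptors *Pdlim5* (1.31) and *Pdlim7* (1.05, and 0.999 without slice 1, under the threshold). The dystrophin complex, which anchors the fibre to its basement membrane, followed in part, with 10 of 12 genes higher and a median of 2.44. Its sarcoglycan *Sgca* rose by 4.32 and the caveolin *Cav3* by 4.49. Dystrophin, *Dmd*, itself had 39.2 ± 6.2 CPM against 25.0 ± 3.2, a log2 fold change of 0.80, and dystroglycan, *Dag1*, 0.44, both under the threshold of 1.

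**Figure D3:**
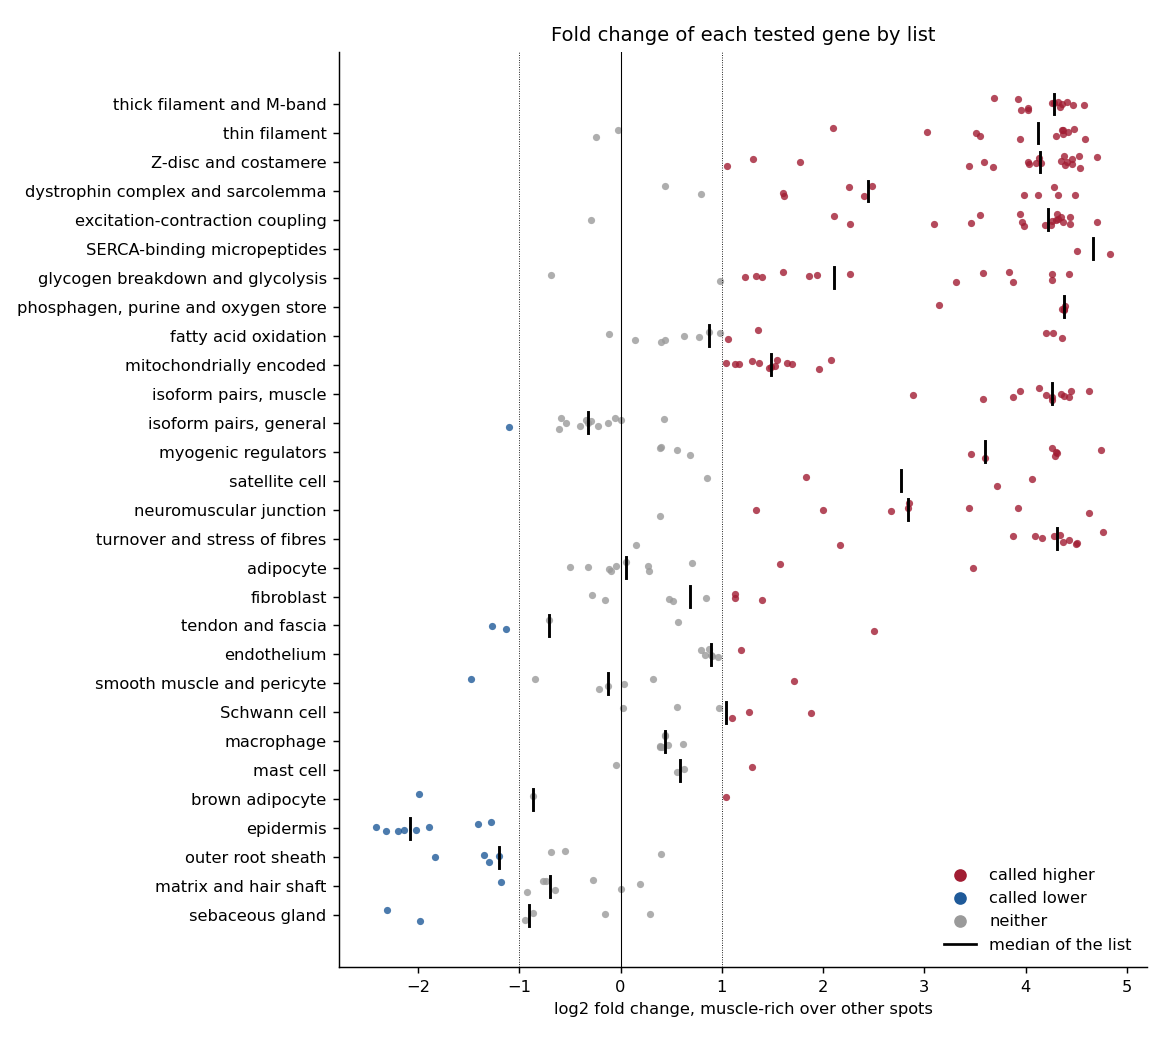
Log2 fold change of muscle-rich over other spots for each tested gene, 1 point per gene, by list, with the list's median as a bar. Contractile, calcium and phosphagen lists gather between 3 and 5, mitochondrial genes between 1.04 and 2.08, and epidermal genes below -1.

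The machinery that couples excitation to contraction rose with the filaments, with 19 of 20 genes higher and a median of 4.22. *Atp2a1* encodes SERCA1, the calcium pump of fast fibres (ENSMUSG00000030730), and had 2611, 2530, 2789 and 3189 CPM in muscle-rich spots. It had 124, 141, 180 and 165 CPM in the other spots, and the log2 fold change was 4.35 (standard error 0.05, adjusted p = 3.4e-58 in edgeR). The reticulum's calcium store *Casq1* rose by 4.44, the cytosolic calcium buffer parvalbumin, *Pvalb*, by 4.26, and the release channel *Ryr1* by 4.31. Triadin, *Trdn*, which links that channel to the store, had the largest change of the list, 4.71. The exception was *Atp2a2*, the pump of slow fibres and of non-muscle cells, with 115 ± 5.6 CPM against 157 ± 13. Of the small peptides that regulate the pump, sarcolipin, *Sln*, had 104, 132, 98.8 and 142 CPM against 3.98, 5.01, 4.34 and 5.21, a log2 fold change of 4.83. Every muscle-rich value lay far above the highest value of the other spots. Myoregulin, *Mrln*, rose by 4.51. Phospholamban, *Pln*, and *Strit1* are listed at 0 in muscle-rich spots and were not tested.

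Proteins of energy supply, and also the calcium pump *Atp2a1* and the actinin *Actn3*, were set against general isoforms of the same families. In each of 13 pairs of a muscle isoform and its general partner, the muscle gene was called higher and the partner was not. The muscle genes had a median of 4.26. The partners had a median of -0.32, with 12 under the threshold and the mitochondrial creatine kinase *Ckmt1* lower by -1.10. Of the 13 partners 2 lay above 0, the highest at 0.43. Of the UMIs of cytochrome oxidase subunits *Cox6a2* and *Cox6a1*, the muscle form *Cox6a2* took 68.5%, 71.7%, 69.4% and 72.7% in muscle-rich spots. In the other spots it took 5.92%, 7.59%, 7.95% and 7.71%, a difference of 63.3 percentage points ± 1.58 (exact two-sided sign-flip permutation test, p = 0.13, the smallest possible). Subunit 7a had the muscle form *Cox7a1* at 38.1% ± 3.85 and subunit 8 had *Cox8b* at 55.4% ± 8.26, so more of the general form was counted there. Muscle-rich spots also hold other cells, and their part in these shares was not tested. *Cox8b* was lowest in slice 1, at 43.2% against 57.8% to 61.3% in the other slices. The shares of the glycolytic *Pgam2* (86.3% ± 1.55 against 20.9% ± 4.59) and of *Atp2a1* over *Atp2a2* (96.0% ± 0.379 against 49.0% ± 2.55) were higher. The *Eno3* and *Eno1* pair is uncertain, since *Eno1* has a near-identical copy that can take its reads.

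**Figure D4:**
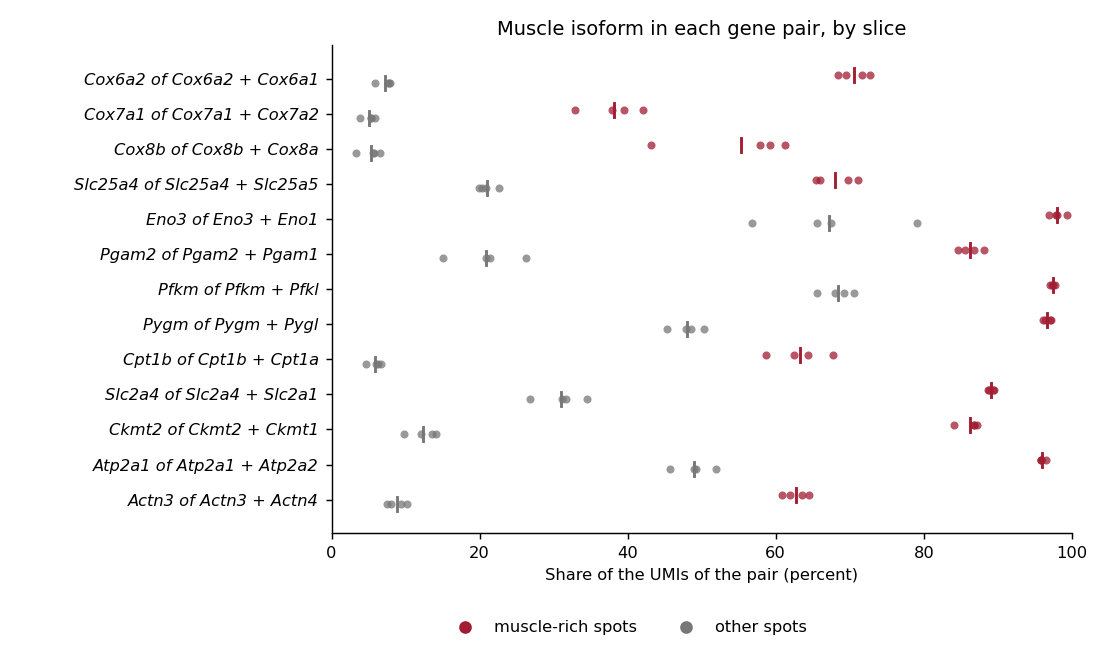
Share of the muscle isoform in the UMIs of each of 13 gene pairs, 1 point per slice with the mean as a bar, in muscle-rich (red) and other spots (grey). The 4 slices of the sets do not overlap in any pair, and the share in muscle-rich spots runs from 38.1% for *Cox7a1* to 98% for *Eno3*. Muscle genes chose the spots, so some separation follows from the rule, and other gene pairs were not examined.

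The promoters of these pairs were set side by side as a description. Muscle regulatory factors bind E-boxes, of which CAGCTG is a form that reads the same on both strands. Within the 250 bases before the start of the gene, CAGCTG was found in 14.7% of 27025 genes with a promoter in RefSeq's table for GRCm38.p6. Of the 1090 genes called higher, 804 had a promoter in the table, and 22.3% of these held the match. It was found in 33.1% of the 145 with a promoter among the 202 with a log2 fold change of at least 4. Of the 717 genes called lower, 517 had a promoter, and 16.1% of these held it. Of the pairs, 5 of 9 muscle genes and 1 of 12 partners with a promoter in the table held it. A match in these letters is a description and not a site of binding. Whether it has a part in the levels was not tested, and base composition was not taken into account. Both pairs below and *Atp2a1* were chosen after their values and matches were seen, with the match in capitals, 5′ to 3′ on the strand of the gene. *Pgam2* (chr11:5803797-5804046, minus strand) and *Cox8b* (chr7:140900447-140900696, minus strand) hold 1 match each, with its first base 125 and 19 bases before the start. *Pgam1* (chr19:41911621-41911870, plus strand) and *Cox8a* (chr19:7217617-7217866, minus strand) hold none. *Atp2a1* (chr7:126463074-126463323, minus strand) holds 1, with its first base 55 before the start.
Pgam2: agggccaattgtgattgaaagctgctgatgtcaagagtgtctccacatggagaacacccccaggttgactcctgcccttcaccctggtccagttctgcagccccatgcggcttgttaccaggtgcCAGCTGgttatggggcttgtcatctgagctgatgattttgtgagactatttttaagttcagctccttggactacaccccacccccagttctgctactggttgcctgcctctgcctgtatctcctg
Pgam1: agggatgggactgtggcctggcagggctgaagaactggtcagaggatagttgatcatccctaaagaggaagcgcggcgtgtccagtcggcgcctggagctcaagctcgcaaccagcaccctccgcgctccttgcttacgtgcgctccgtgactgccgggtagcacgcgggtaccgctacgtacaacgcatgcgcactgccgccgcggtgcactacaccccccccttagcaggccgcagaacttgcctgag
Cox8b: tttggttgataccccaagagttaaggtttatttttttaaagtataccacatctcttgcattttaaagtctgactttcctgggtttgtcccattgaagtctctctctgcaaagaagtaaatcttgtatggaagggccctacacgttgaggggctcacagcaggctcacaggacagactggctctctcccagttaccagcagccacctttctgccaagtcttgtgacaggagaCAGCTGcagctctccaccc
Cox8a: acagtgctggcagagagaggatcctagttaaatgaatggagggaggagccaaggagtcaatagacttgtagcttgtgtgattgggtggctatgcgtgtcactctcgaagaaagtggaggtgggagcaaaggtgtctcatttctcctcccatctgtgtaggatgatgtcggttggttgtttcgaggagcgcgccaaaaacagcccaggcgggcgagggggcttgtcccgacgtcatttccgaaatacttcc
Atp2a1: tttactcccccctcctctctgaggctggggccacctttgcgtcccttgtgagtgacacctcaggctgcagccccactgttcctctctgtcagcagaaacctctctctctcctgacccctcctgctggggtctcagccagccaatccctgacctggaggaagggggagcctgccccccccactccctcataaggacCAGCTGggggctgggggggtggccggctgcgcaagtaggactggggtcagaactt

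Glycogen breakdown and glycolysis rose less evenly, with 14 of 16 genes higher and a median of 2.10. Genes of muscle isoforms lay near 4, such as glycogen phosphorylase *Pygm* (4.43), enolase *Eno3* (4.26) and *Pgam2* (4.26). Enzymes made in all cells rose by less, *Gapdh* by 2.26 and lactate dehydrogenase *Ldha* by 1.61. *Pgm2* went the other way, with 22.9 ± 3.9 CPM against 41.0 ± 3.0 (log2 fold change -0.69). The stores that buffer ATP and oxygen all rose, 5 of 5 genes. Myoglobin, *Mb*, had 709, 730, 707 and 666 CPM against 28.7, 43.3, 42.6 and 35.6 (log2 fold change 4.39, standard error 0.05, adjusted p = 1.8e-56 in edgeR), and the mitochondrial creatine kinase *Ckmt2* rose by 4.38.

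Of 13 genes of fatty acid oxidation 5 were higher, and the median was 0.87. The muscle carnitine transferase *Cpt1b*, the fatty acid carrier *Fabp3* and the kinase *Pdk4*, which restrains the use of glucose, rose by 4.20, 4.27 and 4.36. *Lpl*, which frees fatty acids from lipoproteins and is made in fat as well, rose by 1.06 with 291 ± 29 CPM, a call that ended with library size alone (0.91), with spots within 2 steps left out (0.94) and with thinning (0.98). Of the enzymes of the cycle itself, the dehydrogenase *Acadm* rose by 1.36 (0.94 with the top 20% of spots, under the threshold), whereas *Acadl* was at 0.78, with 101 ± 9.9 against 65.2 ± 3.2 CPM, and *Hadha* at -0.12, with 147 ± 8.0 against 178 ± 18 CPM, both under the threshold. Messages of the mitochondrial genome rose together, 13 of 13, by 1.04 to 2.08 with a median of 1.48. *mt-Co1* had 6910, 12750.4, 11688 and 13496 CPM in muscle-rich spots and 2573, 5317, 5193 and 5157 in the others. Slice 1 was low in both sets, and the ratio of the means was 2.46.

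Regulators of the muscle lineage were counted at low levels. Of 12, 7 rose, 4 did not pass and *Myf5* was not tested, with a median of 3.60. *Myf6*, the regulator most active in mature fibres, had 20.7, 22.8, 22.6 and 29.3 CPM against 0.615, 1.16, 1.11 and 1.03 (log2 fold change 4.75, standard error 0.19, adjusted p = 3.4e-30 in edgeR). *Mef2c* rose by 3.60, *Myog* by 4.29 and *Myod1* by 4.27. *Mef2a*, *Mef2d* and *Nfix*, which many cells make, had 0.40, 0.68 and 0.56. Markers of satellite cells, the stem cells beneath the basal lamina, gave few UMIs. *Cdh15* had 5.97, 7.71, 9.68 and 11 CPM from 80 UMIs in all, against 0.418 to 0.629 in the other spots, and rose by 4.07. *Msc* and *Megf10* rose as well, by 3.72 and 1.83, which made 3 of 4 tested genes, and *Chodl* was at 0.85, or 1.02 and 1.03 and past the threshold without slice 2 or 3. *Pax7*, which defines these cells, had 15 UMIs in the 642 spots and was not tested, nor were *Calcr* and *Chrdl2*.

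The neuromuscular junction was covered by 9 tested genes of 12, of which 8 rose with a median of 2.84. The α subunit of the acetylcholine receptor, *Chrna1*, had 15.9, 8.87, 16.9 and 16.2 CPM against 0.400 to 0.779, a log2 fold change of 4.63. The scaffold *Rapsn* rose by 3.45, acetylcholinesterase, *Ache*, by 2.85 and the adult ε subunit *Chrne* by 2.67, with 2.47 ± 0.60 against 0.425 ± 0.12 CPM. *Lrp4*, the receptor for the nerve's signal, did not pass, with a log2 fold change of 0.39. Genes of fibre turnover and stress rose in 11 of 12, with a median of 4.31. These included the ubiquitin ligase *Trim63* (4.10), the growth inhibitor myostatin, *Mstn* (4.37), the LIM protein *Fhl1* (3.87, 1135 ± 93 CPM) and the stretch-responsive *Smpx* (4.77). The exception was *Fbxo32*, the other well-known ligase of muscle wasting, with 39.8, 35.5, 35.5 and 43.9 CPM against 38.1, 39.2, 37.2 and 39.1. The sets overlap, and its log2 fold change was 0.15 (adjusted p = 0.15 in edgeR). Its ratio of means, 1.01, lies apart from the 15.5 of *Trim63*.

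Outside the lists, the genes with the largest rises at 20 CPM or more were led by *Tmem233* (4.97, 22.9 ± 2.6 CPM), *Yipf7* (4.80) and the actin-binding *Abra* (4.65). *Apobec2*, a muscle member of the cytidine deaminase family, had 592, 658, 592 and 662 CPM against 24.2, 31.3, 32.5 and 26.2 (log2 fold change 4.61). *Rpl3l*, the form of ribosomal protein L3 used in striated muscle, rose by 4.43, and *Hjv*, a cofactor of BMP signalling in iron control, by 4.47. *Ppp1r27*, *Asb11*, *Asb5*, *Prr33*, *Lrrc14b*, *Ky*, *2310002L09Rik*, *Atcayos* and *Gm11716* lay between 4.41 and 4.61. Of all called genes, 202 had a log2 fold change of at least 4 and only 5 reached 5.

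The muscle-rich spots were not muscle alone. Of the 642, 41 were also among the top 10% by adipocyte genes, 5.13% to 7.43% of the muscle-rich spots per slice. The adipocyte list as a whole was level, with a median of 0.06. *Adipoq*, which defines adipocytes, had 46.3 ± 3.5 CPM against 43.2 ± 6.1, and *Fabp4* 1071 ± 176 against 1140 ± 111, a log2 fold change of 0.06 that turned to -0.096 with library size alone. *Car3*, a carbonic anhydrase abundant in both fat and muscle, stood apart with 2066, 2433, 2345 and 2890 CPM against 188, 235, 272 and 276, a log2 fold change of 3.48. The lipid droplet protein *Plin4* rose by 1.58. The summed list read 4082 ± 227 CPM against 1993 ± 39.4, of which *Car3* alone gave 2433 and 243. Of the 4 brown adipocyte genes, the defining *Ucp1* is listed at 0 in all muscle-rich spots, *Cidea*, also made in sebaceous glands, was lower by -1.99, and *Elovl3* was at -0.86. *Ppargc1a*, a coactivator of mitochondrial genes that muscle also makes, was at 1.04, a call that ended without slice 2 (0.97), with library size alone (0.89) and with thinning (0.58).

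Connective tissue differed by gene. The interstitial collagen *Col3a1* had 3723, 3954, 3209 and 3523 CPM against 2085, 1945, 1600 and 1718 (log2 fold change 1.13). *Pi16* and *Dpt*, which mark fibroblasts of the fascia and adventitia, rose by 1.40 and 1.13. The calls of *Col3a1* and *Dpt* ended with library size alone (0.97 and 0.98), with spots within 2 steps left out (0.76 and 0.94) and with thinning to 5000 UMIs (0.90 and 0.98), and that of *Col3a1* also with the top 20% of spots (0.95). *Col1a1* was at -0.28, and the sum of the 8 genes was 9255 ± 565 CPM against 8463 ± 942. Of tendon and fascia genes, *Thbs4*, a matrix protein of tendon and muscle junctions, rose by 2.50, whereas *Tnmd* was lower by -1.27, but did not pass with the top 5% of spots (-0.70). *Mkx* was lower by -1.13, a call that ended without slice 1 (-0.66) or slice 4 (-0.95), and *Comp* was not tested.

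Genes of vessels and of myelin were higher in part. All 7 endothelial genes lay between 0.80 and 1.19, and *Cdh5*, the cadherin of endothelial junctions, was the 1 past the threshold of 1. Its call ended with the top 20% of spots (0.91), with spots within 2 steps left out (0.95) and with thinning (0.93). It had 29.1, 36.3, 33.1 and 35.6 CPM against 12.8, 17.3, 17.1 and 18.5. The pericyte gene *Rgs5* rose by 1.72, with 86.8, 103, 81.1 and 92.0 CPM against 26.4, 30.0, 33.6 and 33.5. Smooth muscle genes did not follow, with *Cnn1* lower by -1.48 and *Acta2* at -0.21, and 1.28% to 5.45% of muscle-rich spots per slice were among the top 10% by those genes. Of 6 tested Schwann cell genes 3 rose, and the myelin gene *Mbp* was higher by 1.27, or 0.995 and under the threshold with spots within 2 steps left out. The 7 macrophage genes lay between 0.39 and 0.62, and 0 passed in edgeR or in DESeq2, although 5 had an unadjusted p under 0.05 in edgeR. Of the 4 mast cell genes, *Tpsb2* passed at 1.30, with sets that overlap between slices, and did not pass without slice 3 (0.78).

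Of the genes of the epidermis 8 of 8 fell, with a median of -2.08. *Krt14*, the basal keratin, had 598, 573, 549 and 796 CPM against 2385, 2593, 2631 and 2626 (log2 fold change -1.89, standard error 0.05, adjusted p = 2.1e-38 in edgeR). The suprabasal *Krt10* and loricrin, *Lor*, were lower by -2.02 and -2.14. Of the outer root sheath, 4 of 7 fell, with a median of -1.20 and *Krt6a* at -1.83. Of the matrix and hair shaft, 1 of 8 fell, the keratin-associated *Krtap9-3* at -1.18. The sebaceous *Scd3* and *Awat2* were lower by -2.30 and -1.98, 2 of 6 genes. The largest falls outside the lists were late cornified envelope genes (*Lce1a1* at -2.89, *Lce1m* at -2.68 and *Lce1c*, *Lce1b* and *Lce1a2* between -2.66 and -2.45), *Spink12* (-2.73), *Flg* (-2.70), *Atp6v1c2* (-2.57), *Serpina3j* (-2.55), *Cpsf4l* (-2.41), *Wfdc18* (-2.35), *Krt79* (-2.34), *Car6* (-2.30) and *Krtap19-4* (-2.29, or -3.04 without slice 2). The cystatin *Cst6* had 709, 512, 553 and 1054 CPM against 4464, 3697, 3693 and 4342. *Krox20*, listed as *Egr2*, had 12.6 ± 3.7 CPM in muscle-rich and 36 ± 4.0 in other spots (log2 fold change -1.38).

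The layer next to the muscle is fat, so the 601 muscle-rich spots that were not adipocyte-rich were set against the 601 adipocyte-rich spots that were not muscle-rich. Of 11211 genes tested beside the genes of both scores, 683 were higher in muscle-rich spots (6.09%) and 381 lower (3.4%), with a median of 0.0030 over all genes. The muscle-rich spots are shared with the comparison above. The 13 thick filament genes had a median of 3.61, the 12 thin filament genes called higher included *Tnnc2* at 3.93, and *Atp2a1* was at 3.77. *Car3* rose against fat by 1.91, and leptin, *Lep*, resistin, *Retn*, and the lipase *Lipe* were lower by -2.59, -2.10 and -1.32. Of the epidermal genes, *Krt10* had a log2 fold change of -0.02 and *Lor* of 0.02, whereas *Krt14* was called lower. *Rgs5* was higher by 1.10. Glycerol-3-phosphate dehydrogenase, *Gpd1*, was higher by 1.94 against all other spots and had a log2 fold change of 0.13 against fat.

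The sections of a slice differed in fibre genes. Each slice was cut into 3 strips of equal width, and within muscle-rich spots 95 of 8377 genes (1.13%) differed among strips by edgeR's F test with a largest log2 difference of at least 1. Strips follow the sections for 513 of the 642 spots, so the outlines of the sections were also traced, after the data had been seen, and 129 of 8527 genes then differed. The left, middle and right sections held 223, 188 and 231 muscle-rich spots. The labels do not say which mouse lies where, and mouse and place on the slide cannot be told apart.

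Sarcolipin differed widely between sections, with values given for the traced ones. *Sln* had 89.6, 91.0, 53.7 and 63.0 CPM in the left section of slices 1 to 4, 18, 15.9, 23.4 and 13.7 in the middle one, and 224, 263, 205 and 234 in the right one (adjusted p = 2.3e-22 over strips and 7.1e-23 over traced sections in edgeR). The 3 sections do not overlap. Over strips the means of *Sln* were 60.6, 42.1 and 233 CPM, so the left and middle differed less, by -0.43 in place of -2.09 on the log2 scale. *Myh4* ran in another order, with 2823 ± 467 CPM in the left, 1581 ± 513 in the middle and 974 ± 302 in the right section (adjusted p = 1.2e-24 over strips and 2.6e-19 over traced sections in edgeR). *Myh2* had 562 ± 133, 210 ± 89.9 and 210 ± 61.5, and *Myh1* had 5401 ± 458, 6920 ± 515 and 5910 ± 756. *Myh1* and *Mb* were under the threshold of 1, with largest log2 differences of 0.80 and 0.73 over strips and 0.33 and 0.79 over traced sections. The left strip had a mean of 4031 CPM of *Myh1*. *Mb* had 991 ± 53.1 CPM in the middle section against 559 ± 6.26 in the left and 605 ± 51.2 in the right one. *Atp2a1* had 2986 ± 354, 2746 ± 393 and 2624 ± 389 CPM and did not pass (adjusted p = 0.39 over strips and 0.079 over traced sections in edgeR). Of 64 tested genes of the thin filament, Z-disc, calcium coupling and mitochondrial lists, 0 differed among strips past both thresholds in edgeR, although 30 had an unadjusted p under 0.05. Only 1.13% of all genes passed both, so 0 of 64 lies near the share of any genes. Past both over strips were 4 of 13 thick filament genes and both tested regulators of the pump, of which *Myh8* did not pass over traced sections (0.91).

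**Figure D5:**
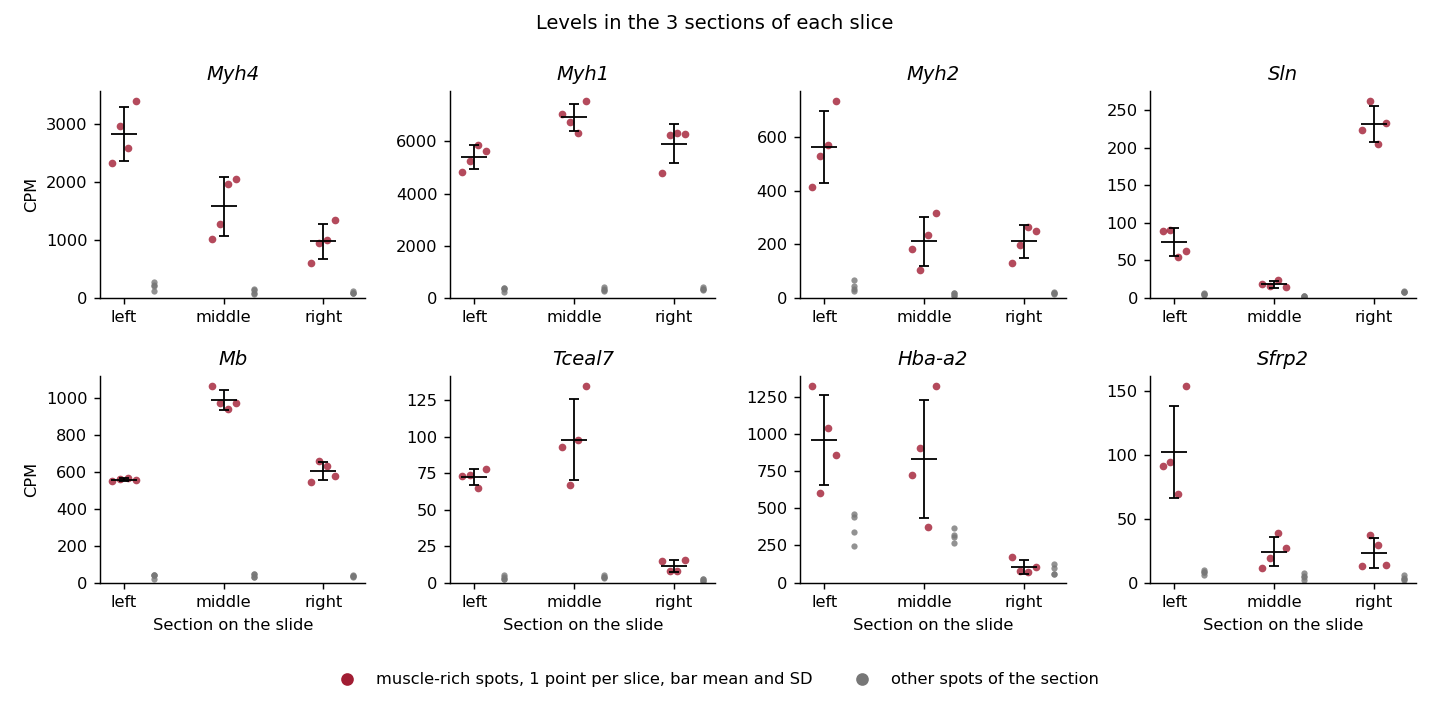
CPM of 8 genes in muscle-rich spots (red, 1 point per slice, bar at the mean with the SD) and in the other spots (grey) of the left, middle and right section. *Sln* is highest on the right and *Myh4* on the left in each of the 4 slices. These genes and *Hba-a2* differ between sections in the other spots too. There *Sln* has 4.73, 1.84 and 8.20 CPM on average and *Myh4* 204, 111 and 88.6 from left to right.

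The 10 genes of lowest p also held genes outside the lists. Haemoglobin *Hba-a2* had 956 ± 303, 831 ± 396 and 107 ± 46.8 CPM in muscle-rich spots from left to right, and 374, 316 and 85.7 in the other spots of the same sections. *Xist*, the RNA that silences an X chromosome in females, had 120 ± 15.3 CPM in the right section against 16.2 ± 3.87 and 14.2 ± 8.14, with 114 in its other spots. The other spots of the left and middle sections had 11.5 and 10.3 CPM. By this gene the right section differs in sex from the others, so sex also cannot be told apart from mouse and place. The hair shaft genes *Gm11567*, *Gm11568*, *Krtap4-7* and *Krtap4-8* were highest in the right section in the muscle-rich spots of each slice, as with *Gm11567* at 420 ± 72.8 CPM. In the other spots *Gm11567* had 861 ± 244 CPM on the right and 644 ± 83.4 on the left, and in slice 2 these 4 genes were higher on the left. The muscle-rich spots of the right section also held more epidermal RNA, 2605 CPM for the list against 1560 and 1664. So did its other spots, with 8183 to 8460 CPM per slice against 5265 to 7273 on the left and 6216 to 7730 in the middle. The summed fibroblast list in muscle-rich spots was 13267 ± 2408, 8522 ± 1196 and 6789 ± 512 CPM from left to right. *Myh4* had the same order. In the other spots the list had 9421 to 14390, 6354 to 8642 and 5852 to 8917 CPM per slice. *Col1a1* had 3483, 2065 and 1541 CPM in muscle-rich and 4317, 2798 and 2432 in other spots of the traced sections. Over strips *Col1a1* was highest in the middle, with 2564, 2954 and 1508 CPM in muscle-rich spots. The fat hormone *Retn* had 31.5 to 58.0 CPM per slice in muscle-rich spots of the left and middle sections and 2.91 to 6.90 in the right one, and 24.1 to 37.8 and 15.2 to 21.8 in the other spots of those sections (largest log2 difference 3.06, adjusted p = 2.8e-12 over strips in edgeR). Over strips 1 of 9 tested adipocyte genes passed both thresholds, as did 2 of 4 Schwann cell, 1 of 6 endothelial, 1 of 2 tendon and 1 of 7 outer root sheath genes. *Tceal7* was counted mainly in the muscle-rich spots, with 72.5 ± 5.63, 98.1 ± 27.9 and 11.6 ± 4.15 CPM. In the other spots it had 3.58, 4.03 and 1.70 CPM on average, also lowest on the right. The part of these differences in the fibre genes was not tested.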

How the data were processed

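Visium libraries of 4 slices were made from frozen dorsal skin of 3 mice. The authors deposited UMI counts per gene and spot for spots over tissue, made with Space Ranger 2.0.1 on mm10, without normalization and for 32286 features. The muscle score, the gene lists and the tests were chosen with earlier results of these data known. Of 6420 spots 9 with fewer than 250 genes were left out, and doublets were not called, because spots mix cells. Slices share 963 to 1403 barcodes in pairs, which are the same positions on each capture area.

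Counts were summed per slice and set and tested with edgeR 4.0.16 in R 4.3.3 (TMM, filterByExpr, quasi-likelihood, Benjamini-Hochberg). On simulated data 100% of changed genes were recovered for muscle-rich against other spots (13500 genes fitted, 0.498% of calls false). Among strips 100% were recovered as well (8294 genes, 4.76% of calls false). Recovery of genes with low counts or with a log2 fold change near the threshold was not tested separately. The slice was used as a block, because both sums of a slice come from the same sections. Deviations of same-slice sums from the set means correlated at 0.16 to 0.25 for muscle-rich and other spots and at 0.055 to 0.26 for muscle-rich and adipocyte-rich spots. Named genes were those of each list with the highest CPM in muscle-rich spots, members against the list, the 15 largest changes each way outside the lists at 20 CPM or more, and the 10 lowest p among strips. Others were named for their role, after their values were seen. Positions come from GENCODE M21 and promoters from RefSeq (GRCm38.p6). *Aldoa* is listed under 2 identifiers and *Krt85* was not matched, so neither was analysed here, and a few other genes are not reported here. Alternatives covered DESeq2 1.42.0, scaling, the filter, the block, the share of spots, neighbours, thinning to 5000 UMIs, strips and each slice left out.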

Additional observations from a re-analysis of the deposited data

Results flagged for a closer look

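The 4 slices were compared for 57 quantities, and in 5 of them a single slice lay apart, where about 1 in 20 would do so by chance. In muscle-rich spots, slice 3 had 156 CPM for the summed endothelium list, against 175 to 179 in the other slices. Slice 3 also had 211 CPM for the summed smooth muscle and pericyte list, against 244 to 248, and 84.1% for the share of *Ckmt2* in its pair, against 86.7% to 87.3%. Slice 4 had 2682 CPM for the summed epidermis list, against 1683 to 1841. The share of *Atp2a1* in its pair was 96.6% in slice 4, against 95.8% to 95.9%. The causes were not tested.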

How the results depend on the processing

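Slices are technical, so p-values do not cover mice. Genes higher than in the other spots numbered 1090 and lower ones 717. Sums per slice and strip gave 717 and 452, and per traced section (added after the data had been seen) 719 and 469, with fewer genes tested. Leaving out spots within 2 steps gave 1280 lower. Without the replicate block that pairs the sums, 1082 and 692 were called. Against adipocyte-rich spots the fit without the replicate block called 677 higher and 376 lower, where 683 and 381 were called with it, and among strips it called 87, where 95 were called with it. Among the named genes the block changed the call of *Mkx* and no other. Leaving out 1 slice gave 1088 to 1149 higher and 692 to 755 lower genes, 652 to 728 and 330 to 430 against adipocyte-rich spots, and 95 to 105 among strips. It gave 3.33 to 3.67 steps, 40.1 to 44.2 percentage points of muscle-rich neighbours and a log2 UMI ratio of 0.11 to 0.25. The neighbour difference of 42.8 points was 27.6 with the top 5% and 66.9 with the top 20%, by construction of the set. Counts in the other alternatives stayed within 1.5 times.

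Of 2468 comparisons of 147 named genes with an alternative, 2405 kept direction and side of the threshold, 37 became weaker, 9 stronger and 17 turned sign. The signs turned in genes under the threshold. *Tnni1* was 0.20 with spots within 2 steps left out, 0.031 with strips, 0.053 with traced sections and -0.12 to 0.16 with 1 replicate left out, the highest without replicate 2. *Cox8a* was 0.015 with the top 20%, 0.0017 with spots within 2 steps left out and 0.027 thinned. *Lrp4* was -0.19 with the top 20% and -0.26 thinned. *Fbxo32* was -0.41 with the top 20%, -0.43 with spots within 2 steps left out and -0.13 thinned. *Fabp4* was -0.096 with library size alone and -0.19 with spots within 2 steps left out. *Adipoq* was -0.33 and *Retn* -0.54 with the top 5%, and *Lep* was 0.45 with the top 20% and -1.36, past the threshold, with the top 5%. With spots within 2 steps left out *Pgm2* (-1.01), *Elovl3* (-1.18) and *Chodl* (1.90) passed, as did *Elovl3* with library size alone (-1.01) and thinned, and *Chodl* thinned (1.21). The cause was not tested. Calls also ended for *Pdlim5* (0.76), *Pdlim7* (0.61), *Ckmt1* (-0.95), *mt-Co1* (0.97), *Acadm* (0.94), *Ppargc1a* (0.69) and *Mkx* (-0.81) with the top 20%, for *Ppargc1a* with no filter (0.99) and with spots within 2 steps left out (0.87), for *Pdlim7* with library size alone (0.90) and with spots within 2 steps left out (0.92), for *Tpsb2* with the top 5% (0.40), and for *Mkx* with the top 5% and in DESeq2, on the adjusted p. *Pax7* did not pass the filter on low counts with all 4 slices, and had a log2 fold change of 4.80 without replicate 1.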
